A study of Mus musculus with 12 samples.

Results

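Epx, Prg2, Prg3, Ccr3, Il5ra, Alox15 and Siglecf, genes that mark eosinophils, were followed across an array study of cultured mouse myeloid progenitors. The members were chosen by gene symbol, and each symbol had 1 probe set, so 7 of the 19938 genes measured are described. The study asks how loss of Zfx, a zinc finger factor encoded on the X chromosome, affects gene expression with and without added Myc. It used 12 arrays in 4 groups of 3. The starting cells were bone marrow progenitors selected for c-Kit, from mice that in every group carried CreER (Cre that is switched on by tamoxifen) and had been given tamoxifen. The mice were Zfx wt/y CreER (labelled wt) or Zfx fl/y CreER (labelled ko). Each genotype was infected with a retrovirus for Myc and GFP (Myc wt, Myc ko) or with a control virus for GFP alone (GFP wt, GFP ko). This assignment was read from the sample titles, since the treatment label of the Myc samples names the Myc and the control virus together. At 48 hours GFP+ cells were collected by sorting, and their culture went on for a further 4 days. The medium held 10 ng/mL each of SCF, IL-6 and IL-3. The labels do not say whether arrays of a group come from separate mice or cultures, nor what drives CreER, and they give no age or strain.

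Eosinophils arise in the bone marrow from myeloid progenitors that switch on Gata1 together with C/EBP and PU.1 factors. IL-5, acting through Il5ra and a beta chain shared with the receptors for IL-3 and GM-CSF, drives their expansion and survival. Their granules are filled with eosinophil peroxidase and major basic proteins, and mature cells carry the eotaxin receptor CCR3 and the lectin Siglec-F. Among the members, Epx encodes the peroxidase, and Prg2 and Prg3 encode the major basic protein and its homologue. Ccr3, Il5ra and Siglecf encode surface receptors, and Alox15 encodes a lipoxygenase that oxidises arachidonic acid. Mast cells and basophils also make Prg2, and macrophages also make Alox15. The cultures held IL-3, which acts through the same beta chain as IL-5; IL-5 itself is not among the listed cytokines.

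Promoter sequence was matched for 5 members in a RefSeq table of build GRCm38.p6. The stretches below run from 150 to 20 bases upstream of the RefSeq start, on the strand of the gene, and are shown because Epx and Prg3 varied together over the arrays while Ccr3 and Il5ra stayed dim. Capitals mark GATA hexamers, the letters that Gata1 and Gata2 are known to bind. For Epx the stretch is chr11:87875556-87875686 (minus strand), for Prg3 chr2:84988065-84988195 (plus), for Ccr3 chr9:124021821-124021951 (plus) and for Il5ra chr6:106749057-106749187 (minus).
Epx: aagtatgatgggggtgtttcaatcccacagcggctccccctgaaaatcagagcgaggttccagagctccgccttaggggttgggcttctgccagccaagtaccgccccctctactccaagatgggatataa
Prg3: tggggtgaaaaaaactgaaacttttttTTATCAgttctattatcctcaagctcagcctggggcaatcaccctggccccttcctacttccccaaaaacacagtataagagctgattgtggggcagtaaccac
Ccr3: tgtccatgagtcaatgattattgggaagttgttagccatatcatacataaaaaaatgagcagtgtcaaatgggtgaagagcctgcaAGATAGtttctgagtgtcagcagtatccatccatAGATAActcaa
Il5ra: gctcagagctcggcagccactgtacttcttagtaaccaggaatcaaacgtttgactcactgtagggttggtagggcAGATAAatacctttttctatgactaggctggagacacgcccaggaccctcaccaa

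The search covered the 250 bases upstream of each start on both strands. A GATA hexamer (AGATAA or AGATAG, or either of these with T as its first letter) was found in 3 of the 5 member windows and in 26.5% of all 32851 windows in the table. Prg3 held 1, TGATAA on the opposite strand, which appears as TTATCA on the strand of the gene. Il5ra held 1 and Ccr3 held 2. Matches of different motifs did not overlap. The PU.1 core GAGGAA was in 2 windows, Siglecf and Ccr3, and in 23.3% of all windows. The C/EBP pattern TTGCNNAA was in 0 of 5 windows and in 9.56% of all. A match describes letters in a window and not binding.

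The granule genes were bright on every array, while Ccr3 and Il5ra lay below the median probe set on every array. Intensity is the authors' value on a linear scale, where the median of all probe sets was 131. Epx ranged from 1378 to 4924, Prg2 from 839 to 3732 and Prg3 from 269 to 967. Siglecf ranged from 287 to 580 and was above the array median on 12 of 12 arrays. Alox15, at 93.8 to 304, was above it on 7 of 12. Ccr3 lay at 61.4 to 112 and Il5ra at 35.9 to 40.1, below the median on all 12. Probes differ in how strongly they bind, so brightness does not rank the transcripts, and no detection call was used here. The defining receptors Il5ra and Ccr3 thus gave signals below the median probe set, and Prg2 is shared with mast cells and basophils, so these signals do not settle how many eosinophils the cultures held.

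**Figure D1:**
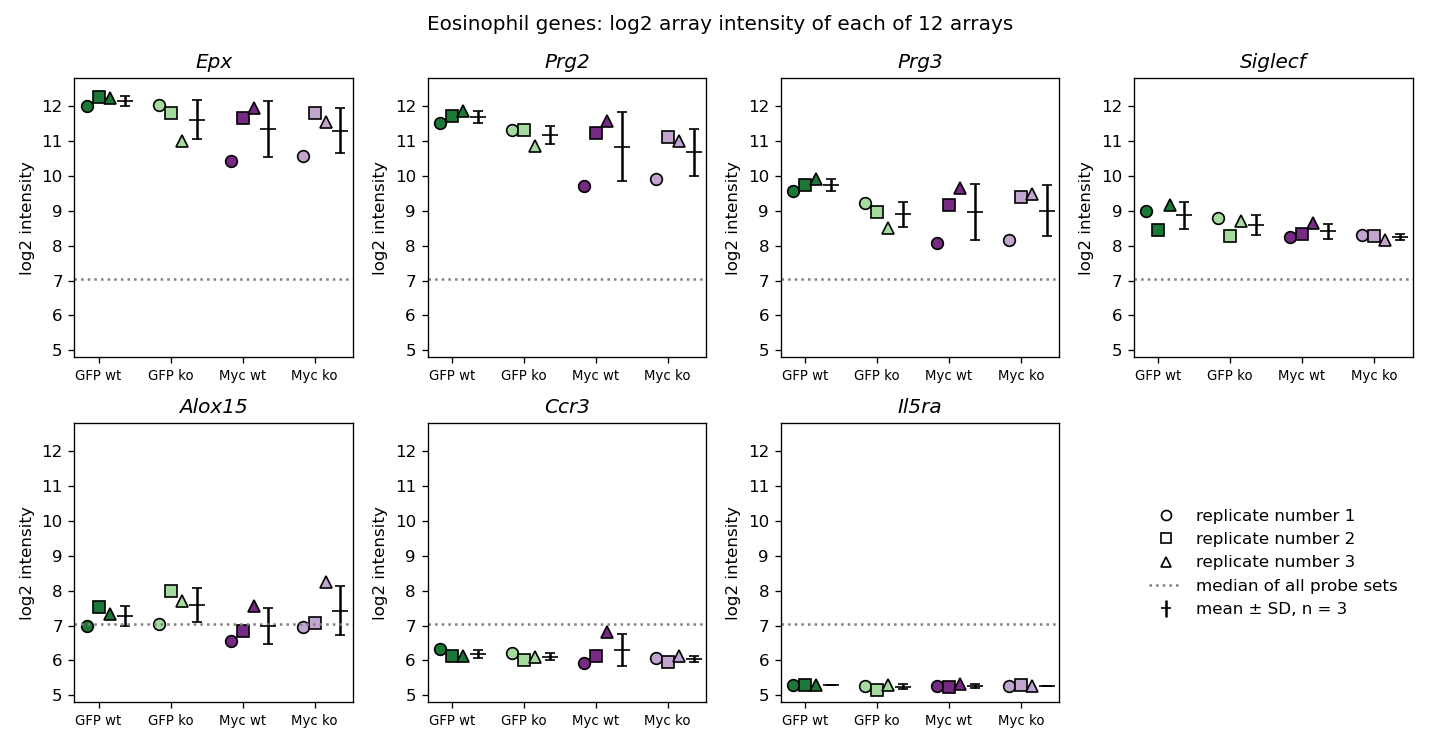
Log2 intensity (vertical axis) of each member in the GFP wt, GFP ko, Myc wt and Myc ko arrays; symbols give the replicate number, bars the mean ± SD (n = 3) and the dotted line the median of all probe sets. Epx, Prg2 and Prg3 are lowest on the 2 Myc arrays numbered 1, and Il5ra is flat below the dotted line.

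Epx, the peroxidase gene, read 4087, 4924 and 4797 on the GFP wt arrays numbered 1, 2 and 3. On GFP ko it read 4242, 3594 and 2042. On Myc wt it read 1378, 3216 and 3961, and on Myc ko 1516, 3557 and 2968. GFP wt was the tightest and the highest group, with a mean of 4603 ± 451 (SD, n = 3), and the other groups had larger SDs. Their means were 3293 ± 1131 in GFP ko, 2852 ± 1329 in Myc wt and 2681 ± 1050 in Myc ko. The order of means was GFP wt, GFP ko, Myc wt, Myc ko, and neighbouring groups overlapped throughout.

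Prg2, which encodes the toxic core protein of the granule crystal, gave 2941, 3356 and 3732 on GFP wt. It gave 2571, 2549 and 1876 on GFP ko, all below the GFP wt arrays. Myc wt arrays gave 839, 2417 and 3031 and Myc ko arrays 961, 2244 and 2054. The group order was that of Epx, with means of 3343 ± 395, 2332 ± 395, 2096 ± 1131 and 1753 ± 692 (SD, n = 3). GFP ko, Myc wt and Myc ko overlapped one another.

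Prg3, the homologue of Prg2, gave 755, 856 and 967 on GFP wt and 600, 502 and 363 on GFP ko, without overlap. It gave 269, 578 and 811 on Myc wt and 285, 671 and 709 on Myc ko. Unlike Epx and Prg2, its lowest mean was in GFP ko, at 488 ± 119, against 553 ± 272 in Myc wt, 555 ± 235 in Myc ko and 860 ± 106 in GFP wt (SD, n = 3). The 3 lower groups did not differ beyond their spread.

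Siglecf, an inhibitory receptor of eosinophils, gave 507, 349 and 580 on GFP wt and 447, 308 and 415 on GFP ko. On Myc wt it gave 307, 322 and 403, and on Myc ko 316, 313 and 287. Its arrays numbered 2 were the lowest in both GFP groups, which is not where the granule genes were lowest. Means ran from 479 ± 118 in GFP wt through 390 ± 72.9 in GFP ko and 344 ± 51.7 in Myc wt to 305 ± 16.3 in Myc ko (SD, n = 3), and neighbours overlapped.

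Alox15, the lipoxygenase gene, gave 126, 187 and 161 on GFP wt, 132, 257 and 209 on GFP ko, 93.8, 116 and 188 on Myc wt, and 125, 135 and 304 on Myc ko. Its arrays numbered 1 were lowest in all 4 groups, and all groups overlapped. Ccr3 stayed between 61.4 and 79.9 except on Myc wt 3, where it reached 112. Il5ra spanned 1.12-fold from its lowest to its highest array. Its residual SD of 0.04 (log2) exceeded that of only 3.7% of genes.

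Adding Myc to wt cells gave lower mean signals for the granule genes and Siglecf, but the spread between arrays was wide and 0 of 7 members passed. Epx was 1.77-fold lower with Myc than with GFP (0.57 of the GFP level, 95% interval 0.295 to 1.09; limma adjusted p = 0.336), and lower in 3 of 3 same-numbered pairs. Prg2 was at 0.55 of the GFP level (0.28 to 1.09, adjusted p = 0.333) and Prg3 at 0.59 (0.31 to 1.12, adjusted p = 0.372), each lower in 3 of 3 pairs. Siglecf was at 0.73 (0.54 to 0.98, adjusted p = 0.202), also lower in 3 of 3. With the replicate number as a block in the fit, its interval was 0.58 to 0.92 (limma adjusted p = 0.0607). The interval of a single gene is not adjusted for the number of genes tested. Alox15 was at 0.81 (0.46 to 1.45) and lower in 2 of 3 pairs, Ccr3 at 1.07 (0.81 to 1.41) and Il5ra at 0.99 (0.91 to 1.06). In RNA from mixed cells, fewer eosinophil-like cells and less of these RNAs per cell cannot be told apart.

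Adjusted p-values come from limma over all 19938 genes with a threshold of 0.05, which 9.28% of genes passed for Myc in wt. Of the members, 1 (Siglecf) had an unadjusted p under 0.05, as did 20.4% of all genes. The median log2 difference over the 7 members was -0.46, against 0.00 over all genes. The Epx arrays of Myc wt and GFP wt did not overlap, and Epx was the 1 member of 7 for which that held; 24.5% of all genes shared this. Leaving out the array GFP wt 2 took Siglecf past the threshold (log2 difference -0.67, adjusted p = 0.039; over its alternatives adjusted p ran from 0.039 to 0.731). So did leaving out all arrays numbered 2 (-0.625, adjusted p = 0.0423).

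**Figure D2:**
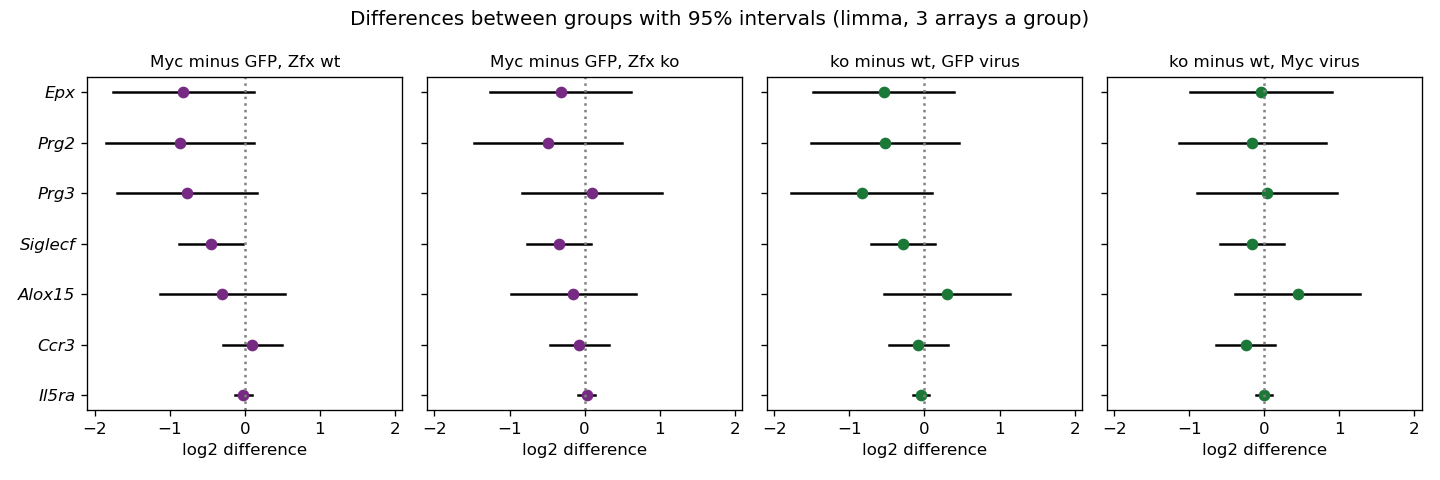
Log2 difference (horizontal axis) of each member for Myc minus GFP in wt and ko and for ko minus wt with GFP and with Myc; points are limma estimates and lines their 95% intervals, from 3 arrays a group. Without a block for the replicate number, all intervals but that of Siglecf for Myc in wt include 0. The Epx, Prg2, Prg3 and Alox15 intervals are the widest. With the block (not drawn), the interval of Prg2 for Myc in wt was 0.32 to 0.94 of the GFP level (limma adjusted p = 0.121). That of Siglecf for Myc in ko was 0.63 to 0.9993 (adjusted p = 0.149). That of Prg3 for Zfx loss with GFP was 0.32 to 0.97 of the wt level (adjusted p = 0.184).

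The size of the Myc difference in the granule genes depended on the replicate number. In pair 1 of wt, Epx was 2.96-fold lower with Myc, Prg2 3.51-fold and Prg3 2.80-fold. In pair 2 the values were 1.53, 1.39 and 1.48-fold, and in pair 3 1.21, 1.23 and 1.19-fold. All 3 genes thus had their largest difference in pair 1 and their smallest in pair 3. Without the array Myc wt 1 the log2 difference of Epx went from -0.82 to -0.36, that of Prg2 from -0.86 to -0.30 and that of Prg3 from -0.77 to -0.32. Leaving out any 1 of the other arrays of these groups kept the 3 differences negative, down to -1.12 for Epx, -1.22 for Prg2 and -1.12 for Prg3.

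In ko cells the Myc comparison had 0 of 7 members past the threshold, against 13.2% of all genes, and 0 members with an unadjusted p under 0.05. Epx was at 0.80 of the GFP ko level (95% interval 0.42 to 1.54, limma adjusted p = 0.805) and Prg2 at 0.71 (0.36 to 1.41, adjusted p = 0.656). Prg3 was at 1.07 (0.56 to 2.05, adjusted p = 0.956). By replicate number, Epx differed by -1.48, -0.01 and 0.54 (log2, pairs 1, 2 and 3), Prg2 by -1.42, -0.18 and 0.13, and Prg3 by -1.07, 0.42 and 0.96. Pair 1 was again the most negative for all 3 genes, and pair 3 was positive for all 3. Without all arrays numbered 1, Epx differed by 0.26 (limma adjusted p = 0.743), Prg2 by -0.03 (adjusted p = 0.976) and Prg3 by 0.69 (adjusted p = 0.124).

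The receptors and Alox15 gave a similar reading in ko. Siglecf was at 0.79 of the GFP ko level (0.59 to 1.06, adjusted p = 0.356) and lower in 2 of 3 pairs. Alox15 was at 0.90 (0.50 to 1.60), Ccr3 at 0.95 (0.72 to 1.25) and Il5ra at 1.02 (0.94 to 1.098). The arrays of the 2 ko groups overlapped for all 7 members; 25.5% of all genes did not overlap. The median log2 difference of the members was -0.15 and that of all genes 0.01.

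**Figure D3:**
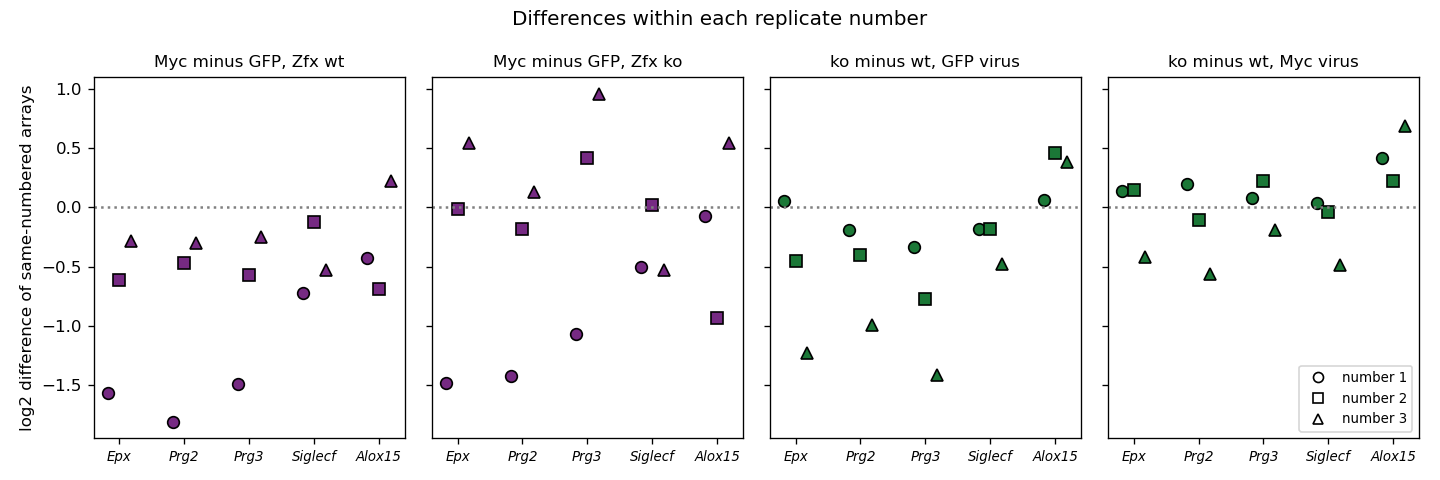
Log2 difference (vertical axis) between arrays of the same replicate number for Epx, Prg2, Prg3, Siglecf and Alox15 in the 4 comparisons; each symbol is 1 pair. Circles (number 1) lie lowest for the granule genes in both Myc comparisons, and triangles (number 3) lie lowest in both Zfx comparisons.

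Averaged over both genotypes, Siglecf was the member nearest to the threshold for Myc. It was at 0.76 of the GFP level (95% interval 0.62 to 0.94, limma adjusted p = 0.064), and it passed once the replicate number was a block (adjusted p = 0.0162). Without the block 0 of 7 members passed, against 21.2% of genes; with it 1 of 7 passed, against 32.0%. Prg2 was at 0.63 (0.39 to 1.01, adjusted p = 0.182; 0.0615 with the block) and Epx at 0.67 (0.42 to 1.07, adjusted p = 0.253; 0.149 with the block). Prg3 was at 0.79 (0.50 to 1.26) and Alox15 at 0.86 (0.57 to 1.29). One member, Siglecf, had an unadjusted p under 0.05, as did 29.8% of genes. Without the block, Siglecf also passed when GFP wt 2 was left out (adjusted p = 0.00987) or GFP ko 2 was (adjusted p = 0.0253), and over its 22 alternatives adjusted p ran from 0.00809 to 0.454.

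For loss of Zfx with the GFP virus, the major basic protein genes gave the clearest separation of single arrays, and 0 of 7 members passed. Prg3 was at 0.56 of the wt level in ko (95% interval 0.29 to 1.07, limma adjusted p = 0.423), with log2 differences of -0.33, -0.77 and -1.41 in pairs 1, 2 and 3. Prg2 was at 0.69 (0.35 to 1.37, adjusted p = 0.752), with -0.19, -0.40 and -0.99. Epx was at 0.69 (0.36 to 1.32, adjusted p = 0.713), with 0.05, -0.45 and -1.23. Pair 3 had the largest difference for each of them, in contrast to the Myc comparisons. Arrays did not overlap for Prg2 and Prg3, 2 of 7 members, against 17.9% of all genes.

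The threshold was passed by 4.11% of all genes in this comparison. The members had 0 unadjusted p under 0.05, where 14.6% of all genes had one. Siglecf was at 0.82 (0.61 to 1.104) and lower in 3 of 3 pairs. Alox15 was at 1.23 (0.69 to 2.19), higher in 3 of 3 pairs, the opposite direction to the granule genes. Ccr3 was at 0.95 (0.72 to 1.25) and Il5ra at 0.97 (0.90 to 1.04).

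With the Myc virus, ko and wt were close for the granule genes, although the intervals were wide. Epx was at 0.97 of the wt level (95% interval 0.50 to 1.86), Prg2 at 0.90 (0.45 to 1.77) and Prg3 at 1.02 (0.54 to 1.96). Siglecf was at 0.89 (0.66 to 1.20) and Ccr3 at 0.84 (0.64 to 1.11). Il5ra was at 1.00 (0.92 to 1.08). Alox15 was at 1.36 (0.76 to 2.43) and higher in 3 of 3 pairs, as with the GFP virus; the 2 comparisons use different arrays. Averaged over viruses Alox15 was at 1.29 (0.86 to 1.95, limma adjusted p = 0.518).

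In the Zfx comparison with Myc 0 of 7 members passed (limma adjusted p from 0.651 to 0.999), against 5.46% of all genes, and 0 had an unadjusted p under 0.05. Arrays overlapped for all 7 members; 19.5% of genes did not overlap. Averaged over viruses 0 members passed, against 12.1% of genes, and 0 had an unadjusted p under 0.05. The interaction asks whether the Myc effect differs between genotypes. Its estimate was 0.87 ± 0.60 (log2, SE) for Prg3, 0.50 ± 0.60 for Epx and 0.37 ± 0.63 for Prg2, and 0 of 7 members passed, as did 0% of all genes. No member had an unadjusted p under 0.05 for the interaction (0 of 7), against 1.72% of genes.

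Epx, Prg2 and Prg3 varied together over the arrays, also after group means were subtracted. Over 12 arrays Epx correlated with Prg2 at r = 0.97 (Spearman's rho 0.96) and with Prg3 at 0.94 (rho 0.83), and Prg2 with Prg3 at 0.92 (rho 0.88). Leaving out the 2 arrays farthest from the median of the first gene gave 0.89, 0.83 and 0.80. After subtracting each group's mean the 3 correlations were 0.95, 0.96 and 0.97. Epx spanned 1.84 on the log2 scale, Prg2 2.15 and Prg3 1.84, whereas the difference of Prg2 and Epx within an array spanned 0.60, that of Prg3 and Epx 0.78 and that of Prg3 and Prg2 0.83. Prg3 minus Prg2 (log2) lay at -2.37 to -2.1 in GFP ko, -1.97 to -1.95 in GFP wt, -2.06 to -1.64 in Myc wt and -1.75 to -1.53 in Myc ko. Relative to Prg2, Prg3 was thus lower on all GFP ko arrays than on all Myc ko arrays, a difference that was not tested. The arrays share groups and replicate numbers and are not independent, so no p is given, and 21 pairs of members were computed.

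The other members did not follow the granule genes to the same degree. Siglecf correlated with Epx at 0.47 (rho 0.63) and at 0.11 after group means were subtracted. Alox15 correlated with Epx at 0.30 (rho 0.22), which became -0.32 without the 2 farthest arrays. Ccr3 and Epx gave 0.37 (rho 0.61), and Il5ra and Epx 0.10 (rho 0.34). The last 2 genes had dim signals, and Ccr3 had 1 high array.

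**Figure D4:**
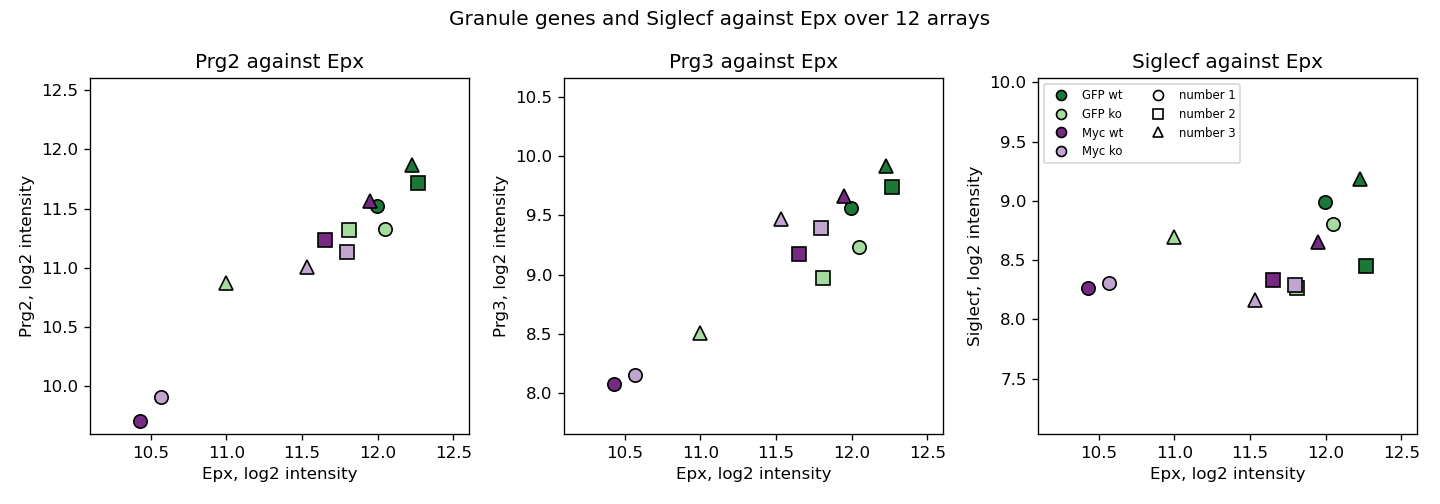
Log2 intensity of Prg2, Prg3 and Siglecf (vertical axes) against Epx (horizontal axis) on 12 arrays, coloured by group with a symbol for the replicate number. Prg2 and Prg3 lie along a line with Epx (r = 0.97 and 0.94), with the Myc arrays numbered 1 at the low end, while Siglecf scatters (r = 0.47).

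The spread of the granule genes between arrays of a group was large for this data set. The residual SD was 0.59 for Epx, 0.62 for Prg2 and 0.59 for Prg3 (log2, 8 degrees of freedom), against a median of 0.11 over all genes, and each exceeded that of at least 98.2% of genes. Alox15, at 0.52, exceeded 97.7%. Siglecf was at 0.26 and Ccr3 at 0.24. Blocking on the replicate number took the standard error of the Epx difference from 0.425 to 0.376 and that of Prg2 from 0.444 to 0.344.

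The genes whose arrays most resembled each member were found by Pearson's r of log2 intensity over the 12 arrays, among 16853 protein-coding genes. For Epx they were Ear6 (0.86), an eosinophil-associated ribonuclease, Gpr176 (0.86), an orphan receptor, and Odaph (0.84). For Prg2 they were Klf5 (0.90), a zinc finger transcription factor, Gpr176 (0.90) and Odaph (0.89), and for Prg3 Odaph (0.78), Gpr176 (0.76) and Klf5 (0.76). Gpr176 and Odaph had mean intensities of 74.1 and 38.1, below the median probe set. For Siglecf they were Sh2b1, Slco4c1 and Rmnd5b (0.92 each), and for Alox15 Lifr (0.86), Tent5c (0.84) and Ccdc89 (0.82). Gpr176 and Odaph were near all 3 granule genes. Those 3 correlated with one another at 0.92 to 0.97, so shared neighbours are not 3 separate observations. The genes named for Siglecf and Alox15 were others. Each is among the highest correlations of 16853 genes, and none was tested.

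Of 10 ribonuclease genes listed, which encode the antimicrobial ribonucleases of eosinophil granules, 4 had a probe set of their own, and 0 passed limma in any of the 7 comparisons without the block. With Myc in ko 1 of the 4 had an unadjusted p under 0.05, Ear6, near the share of 24% over all genes. With the block 2 fell, Ear6 and Rnase2a (24.9% of all genes passed). Near-identical copies in this family may share probes, so single values are uncertain. Ear6 had mean intensities of 2926 ± 587 in GFP wt, 2400 ± 930 in GFP ko, 1907 ± 1195 in Myc wt and 839 ± 611 in Myc ko (SD, n = 3). With Myc in ko it was 3.30-fold lower (limma adjusted p = 0.132; 0.0226 with the block). Rnase2a was 2.00-fold lower in that comparison (adjusted p = 0.759; 0.0342 with the block). Rnase2b and Ear14 were dim, at means of 35.0 to 50.6.

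Receptor chains and signalling genes for IL-5, IL-3 and GM-CSF were measured for 10 of 11 listed genes. Csf2rb, the shared beta chain, had means of 6698 ± 625 in GFP wt, 7729 ± 975 in GFP ko, 6659 ± 748 in Myc wt and 6809 ± 1329 in Myc ko (SD, n = 3). It did not pass in either Myc comparison (log2 differences -0.01 in wt and -0.19 in ko). Of this list 0 of 10 passed limma with Myc in wt and 0 in ko. In each, 3 had an unadjusted p under 0.05, against 20.4% and 24% of all genes. With the block 4 fell and 1 rose in wt, and 7 fell in ko. Loss of Zfx moved 0 with GFP and 0 with Myc. In each, 1 had an unadjusted p under 0.05 (14.6% and 15.8% of all genes) and 1 fell with the block. With the block the shares over all genes were 20.5% for Myc in wt, 24.9% in ko, 12.2% for Zfx loss with GFP and 14.1% with Myc. Averaged over genotypes 2 of 10 fell with Myc (21.2% of all genes passed), and 7 fell and 1 rose with the block (32.0%). The 2 were Cish, a feedback inhibitor of STAT5 signalling (1.49-fold lower, limma adjusted p = 0.00997), and Csf2ra, the GM-CSF receptor alpha chain (1.40-fold lower, adjusted p = 0.0319). Averaged over viruses 1 of 10 fell in ko (12.1% of all genes passed), and 1 fell and 1 rose with the block (23.0%). It was the transcription factor gene Stat5b (1.22-fold lower, adjusted p = 0.0435).

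Of 12 transcription factor genes of the eosinophil lineage, 2 fell and 0 rose with Myc in wt, where 9.28% of all genes passed: Id2 (2.32-fold lower, limma adjusted p = 0.0151) and Spi1, which encodes PU.1 (1.30-fold lower, adjusted p = 0.0301). In ko, where 13.2% of all genes passed, 2 fell and 0 rose, Spi1 (1.33-fold lower, adjusted p = 0.0166) and Cebpe, needed for late granulocytes (1.30-fold lower, adjusted p = 0.0382). Loss of Zfx with GFP, where 4.11% of all genes passed, moved 0 of 12 by limma (2 at an unadjusted p under 0.05, against 14.6% of all genes). With Myc, where 5.46% of all genes passed, Zfx loss raised 1, the Gata1 cofactor gene Zfpm1 (2.88-fold, limma adjusted p = 0.0184). It lowered 1, Gata2 (2.63-fold lower, adjusted p = 0.0252). In the same comparison 4 of 5 erythroid markers rose, and a link with Zfpm1 was not tested. Averaged over viruses, where 12.1% of all genes passed, 2 of the 12 factors rose in ko. These were Gata1 (2.07-fold, limma adjusted p = 0.0244) and Zfpm1 (2.45-fold, adjusted p = 0.00344), and Gata2 fell (1.96-fold lower, adjusted p = 0.0151). Averaged over genotypes, where 21.2% of all genes passed, Gata1 rose with Myc (1.84-fold, limma adjusted p = 0.0343). Another 5 fell, Spi1, Id2, Cebpe, Id1 and Xbp1, by 1.19 to 1.96-fold. With the block 4 fell and 1 rose with Myc in wt (20.5% of all genes passed), and 8 fell and 2 rose in ko (24.9%). For Zfx loss 2 rose and 1 fell with GFP (12.2%), and 3 rose and 2 fell with Myc (14.1%). The list's median log2 difference was -0.27 for Myc in wt and -0.35 in ko, against 0.00 and 0.01 over all genes.

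Of 9 measured lipid mediator enzymes, which make leukotrienes and prostaglandins, 1 fell with Myc in wt and 2 in ko, and 0 rose, where 9.28% and 13.2% of all genes passed, so the count in wt was near the share over all genes. Alox5ap, the helper of 5-lipoxygenase, was 1.44-fold lower in wt (limma adjusted p = 0.00459) and 1.52-fold lower in ko (adjusted p = 0.00171). Alox5 was 2.09-fold lower in ko (adjusted p = 0.0396). Loss of Zfx moved 0 with either virus by limma (2 at an unadjusted p under 0.05 in each, against 14.6% and 15.8% of all genes). Averaged over viruses 1 rose in ko, Alox12 (2.67-fold, limma adjusted p = 0.038), near the 12.1% of all genes that passed. With the block 3 fell with Myc in wt and 5 in ko (20.5% and 24.9% of all genes passed). With Zfx loss 4 rose under GFP and 3 under Myc with the block (12.2% and 14.1%). Of 12 other surface receptors that eosinophils carry, 1 fell with Myc in wt, the integrin gene Itgam (2.49-fold lower, limma adjusted p = 0.00071), and 3 in ko. The count in wt was near the 9.28% over all genes. Those in ko were Itgam (2.24-fold lower, adjusted p = 0.000603), the inhibitory receptor gene Pirb (2.78-fold lower, adjusted p = 0.0496) and Cysltr2 (1.58-fold lower, adjusted p = 0.000949). Cysltr2, a leukotriene receptor gene, was 1.49-fold higher in ko than wt with GFP (limma adjusted p = 0.00207). Its signal was dim, at group means of 35.5 to 58.3, below the median probe set of 131. That limits what both Cysltr2 differences show. With the block 4 of these receptors fell with Myc in wt (20.5% of all genes passed) and 7 in ko (24.9%). With Zfx loss 3 rose under GFP (12.2%) and 2 under Myc (14.1%) with the block. The count under Myc was near the share over all genes. Neutrophils and monocytes also express Itgam, Pirb, Spi1 and Alox5ap.

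Markers of other cells moved beside the eosinophil genes, and their part in the results was not tested. Of 15 mast cell and basophil markers, 6 fell and 1 rose with Myc in wt and 7 fell in ko, where 9.28% and 13.2% of all genes passed. With Zfx loss 3 fell under GFP and 4 under Myc (4.11% and 5.46% of all genes). With the block 8 fell and 1 rose with Myc in wt (20.5%), 9 fell in ko (24.9%), and 6 fell with Zfx loss under each virus (12.2% and 14.1%). Their summed intensity was 23814 to 30647 in GFP wt, 14463 to 19729 in GFP ko, 10619 to 23490 in Myc wt and 5777 to 9229 in Myc ko. The summed members were 8535 to 10346, 5015 to 8105, 2988 to 8545 and 3309 to 7020 in the same order. Most of the member sum came from Epx and Prg2, and mast cells and basophils also make Prg2. In both Myc groups the array numbered 1 was lowest for the mast cell and basophil sum (10619 in wt, 5777 in ko) and for the eosinophil sum (2988 and 3309). In GFP ko it was number 3 that was lowest for the eosinophil sum (5015) and number 2 for the mast cell and basophil sum (14463).

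Of 15 neutrophil markers 7 fell with Myc in wt and 9 in ko, and 1 rose with Zfx loss under each virus. With the block 12 fell with Myc in wt and 14 in ko, and with Zfx loss 2 rose under GFP and 2 rose and 2 fell under Myc; the shares over all genes are those given beside the mast cell and basophil counts. Their sum was 126644 to 147744 in GFP wt, 118712 to 142966 in GFP ko, 87910 to 98220 in Myc wt and 91565 to 92296 in Myc ko. Of 8 monocyte and macrophage markers 0 passed limma in any of these 4 comparisons (1 at an unadjusted p under 0.05, for Zfx loss with Myc, against 15.8% of all genes). With the block 2 of 8 fell with Myc in wt, Mrc1 and Ccr2 (limma adjusted p = 0.00687 and 0.00806), where 20.5% of all genes passed. In ko 2 of 8 fell, Ccr2 and Cd14 (limma adjusted p = 0.00337 and 0.0107), where 24.9% passed. Both counts were near the share over all genes. Csf1r rose with Zfx loss under GFP and under Myc with the block (limma adjusted p = 0.0308 and 0.0106), and Mrc1 fell under GFP (0.0127). The shares of all genes that passed there were 12.2% under GFP and 14.1% under Myc. Their sums were 4206 to 7854 in GFP wt, 6136 to 9077 in GFP ko, 2768 to 5612 in Myc wt and 3718 to 6399 in Myc ko. Of 5 erythroid markers 1 rose with Myc in wt and 5 in ko, where 9.28% and 13.2% of all genes passed. With Zfx loss under Myc 4 rose, where 5.46% of all genes passed (5 with the block, where 14.1% did). The erythroid sum was 637 to 910 in GFP wt, 896 to 1178 in GFP ko, 944 to 1290 in Myc wt and 1919 to 5267 in Myc ko. Of 4 megakaryocyte markers 0 passed limma in the 4 comparisons. For Zfx loss 3 had an unadjusted p under 0.05 with each virus (14.6% and 15.8% of all genes), and 3 rose there with the block (12.2% and 14.1%). With Myc 1 had an unadjusted p under 0.05 in each genotype (20.4% and 24% of all genes), the platelet chemokine gene Ppbp. Ppbp was 8.39-fold lower in wt (limma adjusted p = 0.0586, or 0.00697 with the block) and 6.07-fold lower in ko (adjusted p = 0.0859, or 0.0124 with the block). Averaged over genotypes Ppbp passed without the block (7.14-fold lower with Myc, limma adjusted p = 0.00808), where 21.2% of all genes passed. The megakaryocyte sum was lowest on Myc wt 1, at 1589, within a range of 1589 to 6726 in Myc wt and 6815 to 13235 in GFP wt. It was 19666 to 25353 in GFP ko and 5003 to 14942 in Myc ko.

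**Figure D5:**
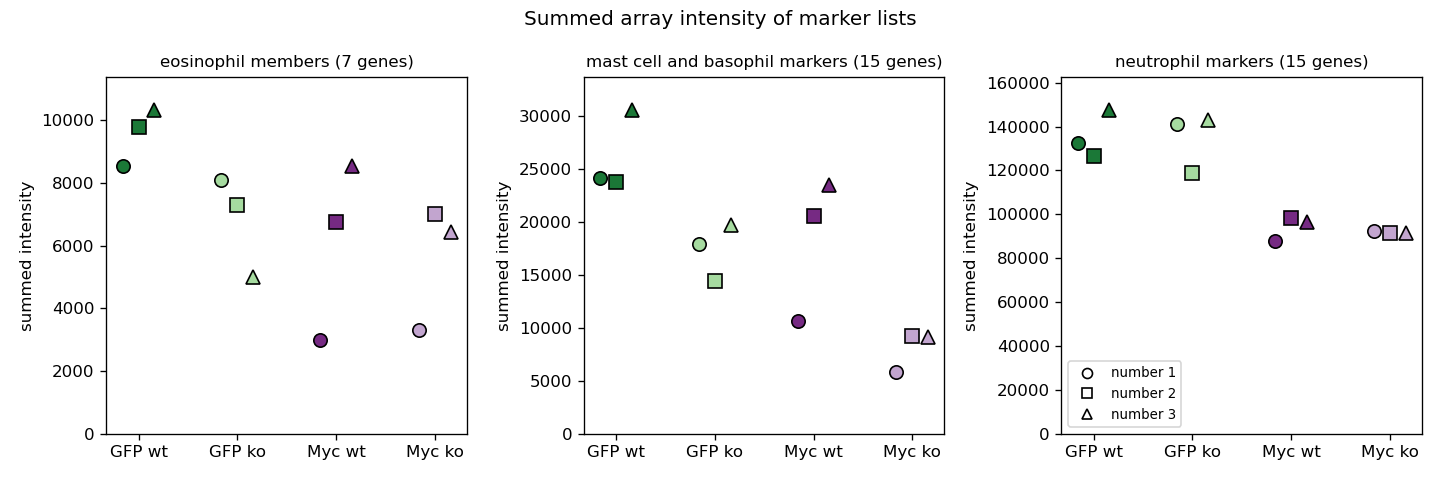
Summed intensity (vertical axis, from 0) of the 7 eosinophil genes (mostly Epx and Prg2), 15 mast cell and basophil markers and 15 neutrophil markers on each of 12 arrays, by group, with a symbol for the replicate number. The Myc arrays numbered 1 are low in the first 2 panels (2988 and 3309; 10619 and 5777), and the third panel shows neutrophil sums of 87910 to 98220 on the Myc wt arrays.

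As checks of the labels, the Myc probe set was 1.74-fold higher with the Myc virus in wt and 1.87-fold higher in ko (limma adjusted p = 0.000724 and 0.000342). The Zfx probe set was not lower in ko, at 1.08 of the wt level with GFP and 1.06 with Myc (adjusted p = 0.619 and 0.789); which exons its probes cover is not known here, so it does not test the deletion. Directions between genotypes therefore rest on the labels Zfx wt and Zfx ko. Array medians lay between 127 and 137, and arrays of a group correlated at 0.9878 to 0.9957 over genes (log2).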

How the data were processed

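RNA from 12 samples was measured on 1-colour gene arrays. Each array has 1 deposited intensity per probe set, on a linear scale, which the authors computed with RMA, per the submitters' processing notes (no version given there). Log2 was taken with no pseudocount. Of 35556 probe sets, 21789 had 1 gene symbol, 1621 several and 12146 were not listed. The brightest probe set per gene was kept, leaving 19938 genes, with symbols updated through RefSeq by gene identifier.

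Groups were compared with limma 3.58.1 in R 4.3.3 (lmFit, eBayes; a mean for each of 4 groups over all 12 arrays; Benjamini-Hochberg adjusted p under 0.05). The fit was tested on simulated data. Precision is limited by having 3 arrays a group (residual degrees of freedom: 8), and p-values measure the spread between arrays, which may be technical. Replicate numbers were read as pairing the arrays: over all genes, the deviations of same-numbered arrays from their group means had correlations of 0.40 to 0.85 (18 pairs). The labels give the numbers only. Same-numbered values are given for the members, and fits with the number as a block beside the counts they change.

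The members and lists were chosen with earlier results of these data known. The plan was to name all 7 members, Zfx, Myc and up to 4 genes past the threshold per list and comparison. It also held the 3 most similar protein-coding genes for each member above the median intensity. Not every list gene that the plan allowed was named. The mast cell and basophil, neutrophil and erythroid markers are given only as counts and sums. A few further list genes (Ear6, Rnase2a, Rnase2b, Ear14, Csf2rb, Mrc1, Ccr2, Cd14, Csf1r, Ppbp, Xbp1) were named after their values were seen. Of these, Xbp1 and Ppbp passed without the block, for Myc averaged over genotypes (limma adjusted p = 0.0358 and 0.00808). Alternatives were the block, a second quantile normalization, centring on medians, a trended and robust prior, array weights, only the groups compared, genes above the median intensity, all probe sets, each array left out, and, chosen after seeing the data, all arrays of 1 number left out.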

Additional observations from a re-analysis of the deposited data

How the results depend on the processing

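Of 924 alternative values of the members, 858 kept direction and side of the threshold, 8 passed it (all Siglecf, lower with Myc) and 58 changed sign. No member had passed in the main fits, so no call could be lost. The cause of the sign changes was not tested. The count of members past the threshold for Myc averaged over genotypes went from 0 to 1 (Siglecf) with the replicate block, with array weights (adjusted p = 0.0167), among genes above the median intensity (adjusted p = 0.0398) and without the arrays numbered 2 (adjusted p = 0.00809); with 1 array left out it was 0 to 1. For Myc in wt it was 1 without the arrays numbered 2, and 0 to 1 with 1 array left out. The block changed no other member's call.

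Signs changed as follows (log2 differences). Without the arrays numbered 1, Epx for Myc in ko was 0.262 and Prg3 for Myc averaged 0.141. Without those numbered 2, Prg3 was -0.055 for Myc in ko and -0.057 for Zfx with Myc, Alox15 0.233 for Myc in ko and 0.066 for Myc averaged, and Il5ra 0.004 for Myc in wt, -0.021 in ko, -0.008 averaged and -0.025 for the interaction. Without those numbered 3, Prg3 for Myc in ko was -0.328, Ccr3 -0.195 for Myc in wt, -0.151 averaged and 0.088 for the interaction, and for Zfx with Myc Epx was 0.141, Prg2 0.044 and Il5ra 0.029. With array weights Prg3 was -0.093 for Zfx with Myc, and Il5ra -0.006 for Myc in ko, -0.005 averaged and -0.003 for the interaction. A second quantile normalization gave Il5ra 0.006 for Zfx with Myc.

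With 1 array left out, values for Myc in wt ran from -0.156 to 0.277 (Ccr3) and -0.047 to 0.001 (Il5ra). For Myc in ko they ran from -0.632 to 0.047 (Epx), -0.13 to 0.529 (Prg3), -0.014 to 0.055 (Il5ra) and -0.56 to 0.078 (Alox15). For Zfx with Myc they ran from -0.502 to 0.322 (Epx), -0.721 to 0.229 (Prg2), -0.414 to 0.46 (Prg3), -0.427 to 0.006 (Ccr3) and -0.024 to 0.024 (Il5ra). For Myc averaged they ran from -0.113 to 0.104 (Ccr3) and -0.017 to 0.018 (Il5ra), and for the interaction from -0.193 to 0.757 (Prg2), -0.346 to 0.087 (Ccr3), -0.262 to 0.428 (Alox15) and -0.044 to 0.33 (Siglecf). Ccr3 and Il5ra drop out among genes above the median intensity.

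Over all genes the block took the number past the threshold from 1851 to 4082 for Myc in wt, 2626 to 4959 in ko, 819 to 2440 for Zfx with GFP, 1089 to 2808 with Myc, 4236 to 6380 for Myc averaged and 2406 to 4583 for Zfx averaged. With 3 arrays a group, the wide spread of Epx, Prg2, Prg3 and Alox15 leaves differences of the size measured undetermined, and the dim signals of Ccr3 and Il5ra limit what their flat values show.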
